A study of Homo sapiens with 6 samples.

Results

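The genes described here are 10 markers and regulators of the epithelial-mesenchymal transition (EMT), namely CDH1, EPCAM, CDH2, VIM, FN1, ZEB1, ZEB2, SNAI1, SNAI2 and TWIST1. They were taken by symbol from a table of 35474 genes, all 10 were listed, and all 10 passed the filter on low counts that left 20776 genes to test. The RNA came from A549, a human lung adenocarcinoma cell line, 48 h after siRNA transfection. A group of 3 siBAP18 cultures, given siRNA against BAP18, was set beside 3 siCtrl cultures given a nonspecific siRNA, and the labels name no other treatment or modification of the cells. BAP18 is a chromatin-associated protein that binds BPTF and is listed as C17orf49. The study describes 3 siRNAs against BAP18, and which of them these cultures received is not given in the sources used here. The comparison therefore concerns 1 cell line, 1 time after transfection and the mRNA level only.

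In EMT, epithelial cells lose adherens junctions and take on mesenchymal traits such as a vimentin cytoskeleton, a fibronectin matrix and motility. E-cadherin, made by CDH1, holds neighbouring epithelial cells together, and the zinc-finger repressors of the SNAI and ZEB families and the basic helix-loop-helix factor TWIST1 are known for repressing it, in part by binding E-box sequences. The ZEB mRNAs are in turn targets of the miR-200 family, which ZEB factors repress, so the pair is often described as a double-negative loop. A549 is commonly described as a line with both epithelial and mesenchymal features.

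After BAP18 knockdown, CDH1 was 2.50-fold lower and ZEB2 was 5.26-fold higher, and these were the 2 of the 10 genes past both thresholds used, 0.05 for the adjusted p and 1 for the size of the log2 fold change. FN1 and EPCAM were lower and VIM and CDH2 were higher by less than that. ZEB1, SNAI1, SNAI2 and TWIST1 did not pass the test. The genes did not move in 1 direction as a group, because FN1, a mesenchymal marker, was lower together with the epithelial markers CDH1 and EPCAM.

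Sequences of the miR-200 family are shown first, because they are the part of the loop between these regulators that can be read from sequence. The mature miRNAs are given from RefSeq on GRCh38.p14 with the seed, bases 2 to 8, in capitals. One seed is shared by miR-200b, miR-200c and miR-429.
hsa-miR-200b-3p: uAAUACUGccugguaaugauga
hsa-miR-200c-3p: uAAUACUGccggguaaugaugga
hsa-miR-429: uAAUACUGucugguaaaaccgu
The other seed, which differs at a single base, is shared by miR-200a and miR-141.
hsa-miR-200a-3p: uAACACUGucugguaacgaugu
hsa-miR-141-3p: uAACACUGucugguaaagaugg

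The complements of these seeds, CAGTATT and CAGTGTT, were searched in the sense strand of the 3′ UTR of each gene, taking the GENCODE 29 coding transcript with the longest 3′ UTR. CAGTATT occurred 6 times in the 2549 bases of ZEB1 and 5 times in the 5370 bases of ZEB2. Among 18788 genes with a 3′ UTR of at least 50 bases, 16.3% held the word at all. As many as 6 copies were found in 0.0160% of the UTRs and as many as 5 in 0.0373%. CAGTGTT occurred 3 times in ZEB1 and 4 times in ZEB2, against 18.7% of UTRs that held it at least once. As many as 3 copies were found in 1.065% of the UTRs and as many as 4 in 0.309%. Of the other 8 genes, FN1 held CAGTATT 2 times in 1115 bases and SNAI2 held it 1 time in 1203 bases, and no other match to either word was found in them. A longer UTR holds more words, and a match is a description of the letters only. Both ZEB genes thus held both miR-200 words, and whether the words bear on the level of either mRNA was not tested. The word of miR-205, ATGAAGG, was found 1 time in ZEB1 and in none of the other 9 genes, ZEB2 included, against 11.9% of UTRs that held it. A pair of sites from each gene is shown, on GRCh38 and in the direction of the mRNA, with the word in capitals. The ZEB1 sites lie at chr10:31527623-31527649 and chr10:31528036-31528062 on the + strand. The ZEB2 sites lie at chr2:144389043-144389069 and chr2:144389227-144389253 on the − strand.
ZEB1, CAGTATT: tttatcttatCAGTATTatcactctta
ZEB1, CAGTGTT: tcatcagaatCAGTGTTtgtgattgtg
ZEB2, CAGTATT: taccatacatCAGTATTtttattatta
ZEB2, CAGTGTT: aaattttgtaCAGTGTTaaggcctaaa

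The miRNAs themselves were not measured in these poly(A) libraries. Rows for 2 host transcripts were looked at, and those of miR-200b, miR-200a and miR-429 were not analysed here. The row U47924.27, matched as an older name of MIR200CHG, the host of miR-200c and miR-141, held 0, 2 and 2 counts in siCtrl replicates 1 to 3 and 6, 2 and 2 in siBAP18. MIR205HG, host of miR-205, held 4, 0 and 2 counts against 2, 2 and 6. Neither row passed the filter on low counts, so neither was tested.

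The libraries held 46035635 to 53657450 counts in siCtrl and 42094524 to 56548620 in siBAP18. C17orf49, the targeted gene, fell from 15.1 ± 1.09 to 2.41 ± 0.235 CPM (SD, n = 3 in each group here and below), a log2 fold change of −2.65. CPM here divides each count by the library total after TMM, edgeR's scaling for library composition. Of the 20776 genes tested, 3.74% were lower and 4.72% higher past both thresholds, which is what is meant by called here. An adjusted p under 0.05 alone was reached by 25.1% of genes in the lower and 24.5% in the higher direction. The ranges of the 2 groups did not overlap for 56.6% of the genes. Against this background, 1 of the 10 EMT genes was called lower and 1 higher, and at the adjusted p alone 3 were lower and 3 higher. The groups did not overlap for 6 of the 10, 3 lower and 3 higher. These shares lie near those of all genes tested, so the counts by themselves set the 10 genes apart from the rest by little, and the description below rests on each gene's own values. The median log2 fold change was 0.18 over the 10 genes and 0.00 over all genes tested.

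**Figure D1:**
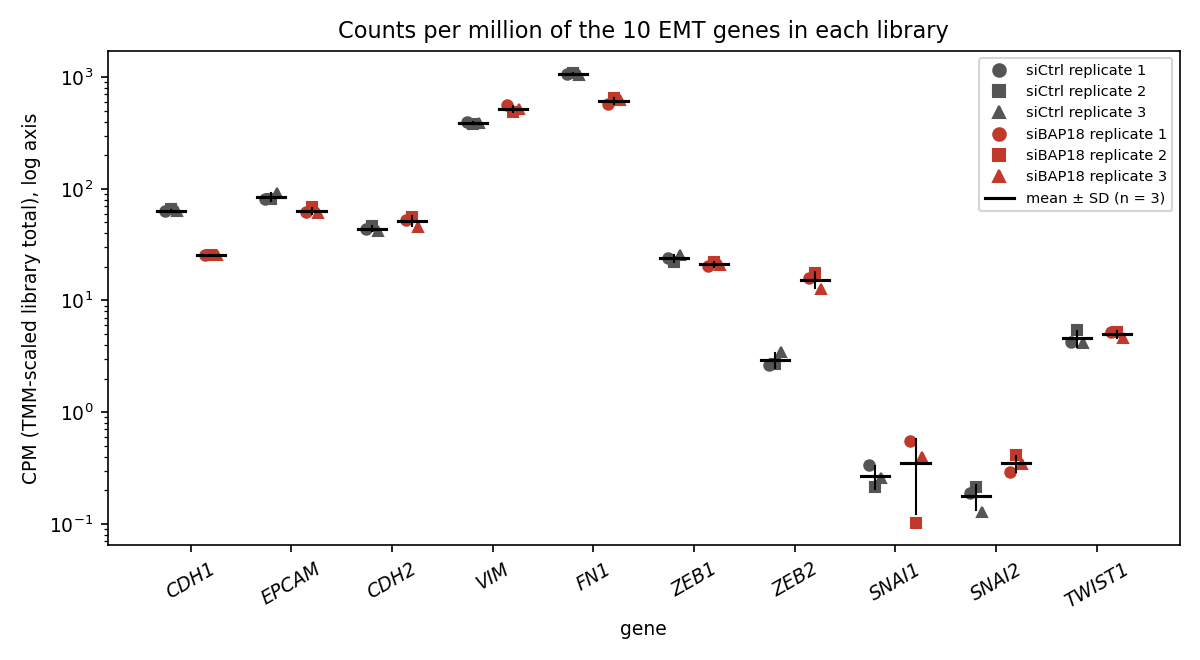
CPM (log axis) of the 10 EMT genes in each of the 6 libraries, with the mean and SD of 3 libraries per group as black lines. CDH1 sits near 64 CPM in siCtrl and near 25.5 in siBAP18, ZEB2 rises from 2.94 to 15.4, and SNAI1 and SNAI2 lie under 1 CPM in every library.

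Of the epithelial adhesion genes, CDH1 lies at chr16:68737225-68835548 on the + strand. It measured 63.5, 65.3 and 62.9 CPM in siCtrl replicates 1, 2 and 3 and 25.4, 25.4 and 25.8 CPM in siBAP18. Every siBAP18 library was below every siCtrl library, and the libraries of each group lay close together, with an SD of 1.27 in siCtrl and 0.202 in siBAP18. The log2 fold change was −1.32 (SE 0.0678, 95% interval −1.46 to −1.18, adjusted p = 3.8e-14). Among all genes tested, 1.39% had a lower log2 fold change.

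EPCAM encodes a homophilic adhesion molecule used as an epithelial surface marker. It lies at chr2:47345158-47387601 on the + strand and measured 81.3, 80.7 and 92.5 CPM in siCtrl and 62.5, 68.2 and 60.9 CPM in siBAP18. The groups did not overlap, although the siCtrl libraries themselves spread from 80.7 to 92.5. EPCAM was lower by a log2 fold change of −0.41 (interval −0.56 to −0.26, adjusted p = 3.8e-05), which is 1.33-fold. Its interval did not reach that of CDH1, so the fall of EPCAM was the smaller on the log2 scale.

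Among the mesenchymal markers, CDH2 encodes N-cadherin, which takes the place of E-cadherin in mesenchymal cells. It lies at chr18:27950966-28177446 on the − strand. It measured 43.3, 46.3 and 41.9 CPM in siCtrl and 52.8, 55.9 and 45.9 CPM in siBAP18. The groups overlapped, because siBAP18 replicate 3 was below siCtrl replicate 2. The log2 fold change of 0.24 (interval 0.08 to 0.39) had an adjusted p of 0.0116, which rose above 0.05 when siCtrl replicate 1, siCtrl replicate 3 or siBAP18 replicate 1 was left out, to at most 0.0811.

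VIM, at chr10:17228259-17237593 on the + strand, encodes the intermediate filament protein vimentin. It measured 399.9, 379 and 387 CPM in siCtrl and 557, 491 and 518 CPM in siBAP18. Every siBAP18 library was above every siCtrl library, with a larger SD in siBAP18 (33.3) than in siCtrl (10.4). VIM rose by a log2 fold change of 0.43 (interval 0.29 to 0.57, adjusted p = 9.4e-06), which is 1.34-fold.

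FN1, at chr2:215360440-215436172 on the − strand, encodes fibronectin, a glycoprotein of the extracellular matrix. It was the highest of the 10 genes in CPM, with 1066, 1084 and 1053 in siCtrl and 578, 646 and 618 in siBAP18. The groups did not overlap and lay well apart. FN1 fell by 0.80 on the log2 scale (interval −0.94 to −0.66, adjusted p = 3.5e-10), which is 1.74-fold. VIM and FN1 thus changed in opposite directions in the same libraries.

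**Figure D2:**
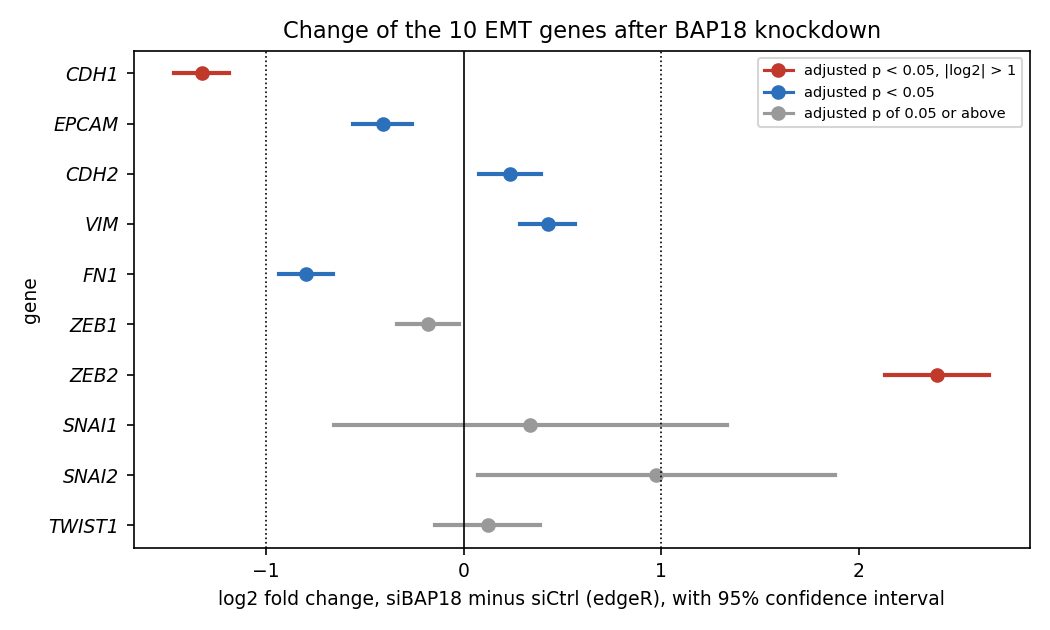
Log2 fold change (siBAP18 minus siCtrl) of each EMT gene with its 95% confidence interval from edgeR, and dotted lines at −1 and 1. CDH1 at −1.32 and ZEB2 at 2.40 lie past the dotted lines, FN1 at −0.80 lies inside, and the intervals of SNAI1 and TWIST1 cross 0.

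Of the transcription factors, ZEB2 changed most. ZEB2, at chr2:144384081-144524583 on the − strand, held 140, 126 and 162 counts in siCtrl and 863, 1028 and 512 in siBAP18. These are 2.63, 2.71 and 3.47 CPM against 15.9, 17.6 and 12.6 CPM. Even the lowest siBAP18 library, replicate 3, was several times above the highest siCtrl library. The log2 fold change was 2.40 (SE 0.128, interval 2.13 to 2.66, adjusted p = 8.3e-14), and 99.1% of all genes tested had a lower one. With any 1 library left out it stayed between 2.29 and 2.53.

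ZEB1, the paralog of ZEB2, lies at chr10:31318495-31529814 on the + strand and measured 24.2, 22.0 and 25.3 CPM in siCtrl and 20.3, 22.1 and 20.7 CPM in siBAP18. The groups overlapped by a small margin, between siCtrl replicate 2 and siBAP18 replicate 2. Its log2 fold change was −0.18 (interval −0.34 to −0.02, adjusted p = 0.0532). ZEB1 passed the threshold without siCtrl replicate 2 (−0.24, adjusted p = 0.0343) and without siBAP18 replicate 2 (−0.22, adjusted p = 0.0198). The intervals of ZEB1 and ZEB2 lay far apart, on opposite sides of 0.

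TWIST1, at chr7:19020991-19117672 on the − strand, measured 4.21, 5.46 and 4.15 CPM in siCtrl and 5.18, 5.21 and 4.59 CPM in siBAP18. The siBAP18 libraries all lay within the siCtrl range. The log2 fold change of 0.12 (interval −0.14 to 0.39) had an adjusted p of 0.459, and the interval leaves no room for a change of the size seen in ZEB2.

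SNAI1, at chr20:49982999-49988886 on the + strand, encodes the repressor Snail and held 18, 10 and 12 counts in siCtrl and 30, 6 and 16 in siBAP18. The highest and the lowest of the 6 libraries were both siBAP18. The log2 fold change was 0.34 with an interval from −0.66 to 1.33 (adjusted p = 0.593), and it turned to −0.22 without siBAP18 replicate 1. SNAI2, at chr8:48917690-48921740 on the − strand, encodes Slug and held 10, 10 and 6 counts in siCtrl and 16, 24 and 14 in siBAP18. The SNAI2 groups did not overlap, with a log2 fold change of 0.97 (interval 0.07 to 1.88, adjusted p = 0.0681). SNAI2 reached the level of the filter in 3 siBAP18 libraries but in 1 siCtrl library, so it entered the test through the group in which it was higher. Among counts from 1 to 19 over all genes, 74.5% to 76.7% were even numbers in each library. What this does to the spread of genes this low, here or in the lists below, was not tested. At these counts the intervals were wide, and values up to 1.33 for SNAI1 and 1.88 for SNAI2 on the log2 scale lay within them.

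Levels were compared between genes in RPKM, which are counts per kilobase of the listed gene length, scaled to the library total. The listed length equalled the union of all annotated exons for each of the 10 genes. For ZEB2 this union is 23707 bases, against 8650 for ZEB1, which lowers its RPKM. The union is 17315 bases for FN1 and 5158 for VIM. The order between genes and the level of a ratio depend on these lengths, and which transcripts were present was not measured. In siCtrl the order was VIM (74.3 to 76.8 RPKM), FN1 (60.3 to 63.3), EPCAM (32.0 to 36.4), CDH1 (10.1 to 10.7) and CDH2 (8.40 to 9.46), with no overlap between neighbours. The transcription factors followed, and ZEB1 (2.57 to 2.90) and TWIST1 (2.03 to 2.71) overlapped, as did SNAI1 (0.129 to 0.199) and ZEB2 (0.110 to 0.145), with SNAI2 lowest (0.0558 to 0.0952). In siBAP18, CDH2 (8.94 to 11.7) stood above CDH1 (4.02 to 4.25), and ZEB2 (0.513 to 0.767) stood above SNAI1 (0.0629 to 0.330). TWIST1 and ZEB1 overlapped in siBAP18, as did SNAI1 and SNAI2. VIM, FN1 and EPCAM kept the first 3 places in both groups.

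Ratios within a library show the same changes without any scaling between libraries. The RPKM ratio of CDH2 to CDH1, the pair exchanged in the cadherin switch, was 0.850, 0.885 and 0.832 in siCtrl and 2.60, 2.75 and 2.23 in siBAP18. CDH1 was thus the higher of the pair in every siCtrl library and CDH2 in every siBAP18 library, and most of the shift came from CDH1, whose log2 fold change was the larger in size. The ratio of ZEB2 to ZEB1 was 0.0396, 0.0449 and 0.04997 in siCtrl and 0.285, 0.290 and 0.222 in siBAP18, so that ZEB1 remained the higher of the pair per length. The ratio of VIM to EPCAM went from 2.40, 2.30 and 2.04 to 4.35, 3.52 and 4.16. The ratio of FN1 to VIM went the other way for a pair of mesenchymal markers, from 0.794, 0.852 and 0.810 to 0.309, 0.392 and 0.355. The groups did not overlap in any of these 4 ratios. A two-sided exact permutation test gave p = 0.1 for each, also after Benjamini-Hochberg adjustment over the 4, which is the smallest p that 3 against 3 libraries allow.

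**Figure D3:**
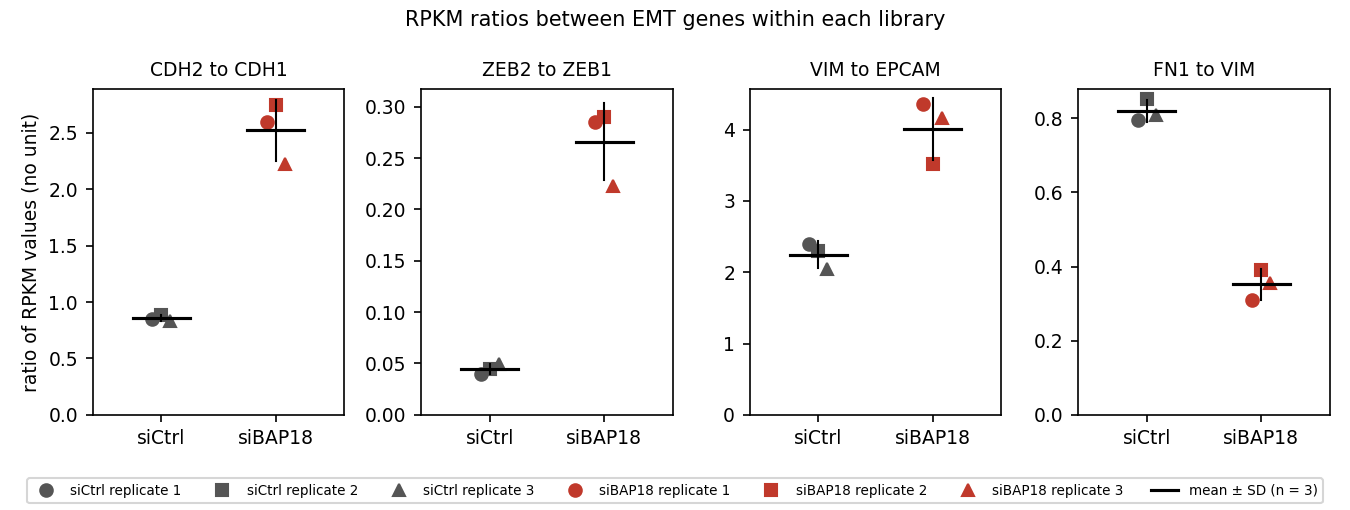
Ratios of RPKM values between pairs of EMT genes (no unit, axes from 0) in each library, with the mean and SD of 3 libraries per group as black lines. CDH2 to CDH1 averages 0.856 in siCtrl and 2.52 in siBAP18, ZEB2 to ZEB1 averages 0.0448 and 0.266, and FN1 to VIM is lower in siBAP18.

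Several of these genes share exon bases with a gene on the opposite strand. The labels describe a strand-specific library, and whether strand was used in counting is not given in the sources used here. RP11-354M1.2, which shares 347 of its 562 exon bases with CDH1, held 22.8% to 24.9% as many counts as CDH1 in every library and differed between the groups by −1.32 on the log2 scale (adjusted p = 1.1e-11). RP11-124N14.3 held 57.7% to 59.0% and VIM-AS1 22.3% to 23.4% as many counts as VIM, with log2 fold changes of 0.43 and 0.42. These shares were nearly the same in siCtrl and siBAP18, so the values of CDH1 and VIM and of these opposite-strand genes cannot be told apart as separate changes. Opposite the ZEB genes the counts were few. ZEB1-AS1 held 26 to 50 counts in siCtrl and 37 to 73 in siBAP18, with a log2 fold change of 0.44 (adjusted p = 0.166), and ZEB2-AS1 held 0 in each siCtrl library and 2, 4 and 1 in siBAP18.

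The genes whose profile over the 6 libraries lay nearest to that of each called gene were found by Euclidean distance of centred log2 CPM among the 9928 genes whose mean log2 CPM reached 3. For CDH1 they were SCAMP1, a membrane trafficking gene (distance 0.0817), the opposite-strand RP11-354M1.2 (0.102) and the lipid transporter ABCA2 (0.116). For ZEB2 they included HIST1H2BD, a histone H2B gene (0.225), and CYR61, a matricellular protein (0.519). Since there are 2 groups of 3, likeness here is mostly a like difference between the groups.

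ZEB and SNAI factors bind E-boxes of the form CACCTG or CAGGTG. These 2 words, which are each other's reverse complement, were searched in RefSeq promoter windows, from 250 bases before to 50 after a start site. For each gene the first window listed was used. Its start site need not be the outer end of the listed gene. The words occurred in 20.6% of all 35116 windows. Entries were found for CDH2, VIM, FN1, ZEB1 and ZEB2, and not for CDH1, EPCAM, SNAI1, SNAI2 and TWIST1. Of the 5 windows, that of ZEB1 held 1 E-box, 57 bases before its start site, and the others held none of these letters. The windows of the ZEB pair are printed because ZEB2 was called higher and ZEB1 did not pass the test, with the E-box in capitals. They lie on GRCh38.p14 at chr10:31318167-31318466 on the + strand and chr2:144520070-144520369 on the − strand. The ZEB2 window lies inside the listed gene, so it does not cover the outer start of that gene. The ZEB1 window ends before the listed gene, which starts at chr10:31318495, so the windows of the pair are placed differently.
ZEB1: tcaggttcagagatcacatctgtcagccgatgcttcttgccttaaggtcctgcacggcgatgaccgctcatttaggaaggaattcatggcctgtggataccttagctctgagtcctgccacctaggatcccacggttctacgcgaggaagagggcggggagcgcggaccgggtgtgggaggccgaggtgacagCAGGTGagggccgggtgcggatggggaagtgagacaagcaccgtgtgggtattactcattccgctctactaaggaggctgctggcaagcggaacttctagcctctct
ZEB2: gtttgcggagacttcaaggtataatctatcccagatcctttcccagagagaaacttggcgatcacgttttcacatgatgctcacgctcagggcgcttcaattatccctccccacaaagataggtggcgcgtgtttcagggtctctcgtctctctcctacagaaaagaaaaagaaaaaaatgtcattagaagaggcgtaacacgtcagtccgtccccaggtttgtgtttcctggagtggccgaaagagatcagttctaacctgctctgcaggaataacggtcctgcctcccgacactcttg

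Other genes of the pathway were counted in lists compiled by role, each beside the background shares given above. Of 33 epithelial adhesion and polarity genes 30 were tested, and 11 were lower, 5 higher and 14 neither at the adjusted p, with none past the fold threshold and a median log2 fold change of −0.18. The 3 that fell most were the catenin gene CTNND1 (−0.95), the plakoglobin gene JUP (−0.85) and the desmoglein gene DSG2 (−0.78). Higher were the desmosomal PERP (0.81), the tight junction gene CLDN1 (0.77) and the envelope gene PPL (0.63). The epithelial group around CDH1 and EPCAM therefore held changes in both directions. Of the 7 genes tested in the cadherin-catenin list, which also holds NECTIN2 and AFDN of adherens junctions, 3 were lower and none higher (median −0.15). The 3 were CTNND1 and JUP, also in the list before, and the beta-catenin gene CTNNB1 (−0.40, adjusted p = 5.7e-05). Of 10 other cadherins tested, 3 were lower and 3 higher at the adjusted p. CDH16 was called lower (−2.88, adjusted p = 1.6e-06) from 27 to 64 counts in siCtrl and 4 to 8 in siBAP18. It reached the level of the filter in no siBAP18 library, so it passed through the group in which it was higher, and it was not tested where at least 10 counts were asked of every library. CDH5 (1.10) and CDH8 (1.26) were called higher at no more than 36 counts in any library, and the call was kept in 4 of 9 other analyses for CDH5 and in 1 of 9 for CDH8. CDH5 lost it without siCtrl replicate 3 (0.84), and CDH8 kept it in 2 of the 6 fits that left out a library. CDH8 reached the filter in 3 siBAP18 libraries but in 1 siCtrl library. The median over the other cadherins was −0.06.

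Of 12 epithelial regulators 10 were tested, with 5 lower and 1 higher at the adjusted p and a median of −0.43. KLF5, a zinc-finger factor of epithelia, fell from 70.9 ± 2.90 to 34.2 ± 1.00 CPM (log2 fold change −1.05, adjusted p = 3.1e-12). With a value this close to −1, the call of KLF5 was kept in 7 of 9 other analyses.

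Of 33 mesenchymal genes 29 were tested, with 6 lower and 13 higher at the adjusted p, 6 of them called higher and none called lower, and a median of 0.29. ACTA2, smooth muscle actin, rose from 11.7 ± 0.972 to 43.3 ± 3.76 CPM (log2 fold change 1.89, adjusted p = 2.2e-15). LOXL2, a collagen cross-linking enzyme, rose by 1.26 (adjusted p = 9.6e-14), and the receptor tyrosine kinase gene AXL by 1.15 (adjusted p = 2.8e-13). TNC (1.47) and CNN1, with 0, 2 and 2 counts in siCtrl and 18, 22 and 26 in siBAP18, were also called, and the fitted log2 value of 3.89 for CNN1 depends on the prior count used at such low counts. CNN1 reached the level of the filter in no siCtrl library, so it entered the test through the group in which it was higher. As with FN1, the 6 lower genes of this list went against its median. The largest falls were those of CALD1 (−0.69, adjusted p = 9.5e-09), THY1 (−0.64, adjusted p = 0.014) and S100A4 (−0.48, adjusted p = 2.0e-06). COL1A1 (−0.38, adjusted p = 0.0012), CD44 (−0.34, adjusted p = 7.6e-05) and COL6A1 (−0.32, adjusted p = 0.0034) fell by less.

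Beside ZEB2, 12 of 14 other EMT regulators were tested, with 2 lower and 6 higher at the adjusted p, 3 of them called higher, and a median of 0.55. FOSL1, an AP-1 subunit, rose from 7.51 ± 0.299 to 97.6 ± 8.32 CPM (log2 fold change 3.70, adjusted p = 1.6e-21). ETS1 rose by 1.55 (adjusted p = 1.0e-11), and the homeobox gene GSC by 1.13 (adjusted p = 0.0039) at 66 counts or fewer. GSC fell below the fold threshold without siCtrl replicate 3 (0.98) or siBAP18 replicate 1 (0.95). Of 10 corepressors through which SNAI and ZEB factors act, 7 were lower and 2 higher, with none past the fold threshold and a median of −0.26. The lowest was the Polycomb gene SUZ12 (−0.72) and the highest the remodeller gene SMARCA4 (0.99), which passed the fold threshold without siCtrl replicate 3 or siBAP18 replicate 3. These are mRNA levels, and whether A549 makes a working protein from each of these genes was not measured. Of 10 genes of TGF-beta signaling, a known inducer of the ZEB and SNAI genes, 2 were lower and 2 higher, with none past the fold threshold and a median of 0.08.

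**Figure D4:**
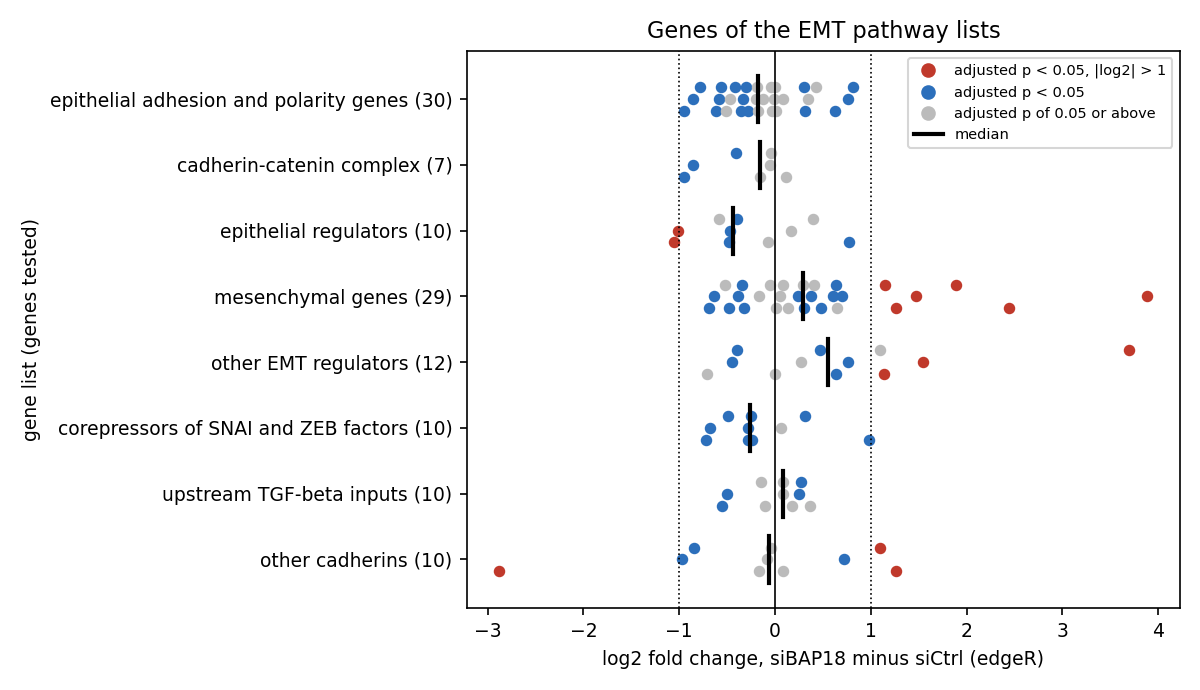
Log2 fold change (siBAP18 minus siCtrl) of every tested gene of 8 pathway lists, 1 point a gene, with the list's median as a black bar and dotted lines at −1 and 1. The mesenchymal genes reach up to 3.89, for CNN1 at few counts, the other EMT regulators reach up to 3.70, and no epithelial adhesion gene passes either dotted line.

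Markers of the labelled line and of other cells were measured beside these genes. The epithelial markers KRT7, KRT8, KRT18, KRT19, EPCAM and MUC1 were all tested, and 4 of the 6 were lower and 1, KRT7, higher at the adjusted p. Their summed level was 21094 to 22925 CPM in siCtrl and 16874 to 21050.1 CPM in siBAP18, so that A549 kept a high keratin level in both groups. Of 9 fibroblast markers 8 were listed and 4 tested, with 2 lower and none higher. Their sum was 13.9 to 15.4 CPM in siCtrl and 10.7 to 12.0 CPM in siBAP18, most of it COL1A1, and FAP was at 0 in each siCtrl library. Of 8 endothelial and leukocyte markers 6 were listed and 3 tested, with PECAM1 lower and CDH5 and CD68 higher. Their sum of 63.2 to 69.8 CPM in siCtrl and 116 to 159.6 CPM in siBAP18 was nearly all CD68, a lysosomal protein gene, while PECAM1 stayed under 1 CPM and KDR was at 0 in each siCtrl library. The part of other cells in the EMT values was not tested. In bulk RNA, fewer cells expressing a gene and less RNA per cell cannot be told apart.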

How the data were processed

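Poly(A) RNA of 6 A549 cultures, 3 siCtrl and 3 siBAP18, was sequenced as paired-end reads. The authors deposited whole-number counts per gene and the same values as RPKM, which equalled the counts divided by the listed gene length and the library total. The submitters' processing notes name the builds hg38 and GRCm38, gene positions in the tables are those of GRCh38, and the aligner, counting program and use of strand are not given in the sources used here. Replicates differed by more than the counting error of independent reads. Chi-square over degrees of freedom was 4.17 to 4.87 among siCtrl and 11.0 to 25.8 among siBAP18 libraries. What the excess of even numbers among low counts does to this measure was not tested.

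Counts were filtered with filterByExpr, scaled by TMM and compared with edgeR's quasi-likelihood test (edgeR 4.0.16, R 4.3.3), with Benjamini-Hochberg adjustment over all genes tested. Called genes had an adjusted p below 0.05 and changed by more than 1 on the log2 scale. Standard errors were taken as the log2 fold change over the root of the F statistic. The steps were tested on simulated data of 20130 genes, where 200 of 200 genes changed by 2 on the log2 scale and 3 others were called. The changed genes were drawn only from those above a minimum expected count. Smaller changes, and changes at counts as low as those of SNAI1 and SNAI2, were not simulated, so the recovery does not cover them. Alternatives were DESeq2 1.42.0 (size factors or its Wald test), total counts only, no filter, a minimum of 10 counts in each library, limma 3.58.1 on log2(RPKM + 1) or log2(RPKM + 0.1) for genes whose mean RPKM reached 0.5, the first of these on all genes, a replicate block and the omission of each library. Replicate numbers did not pair the libraries (correlation of residuals −0.017, 0.051 and 0.0038). No pair of replicates was a copy. The cultures are described as biological replicates, without further detail. The 10 genes and all lists were chosen with earlier results of these data known. Named genes are these 10, C17orf49, up to 4 called genes of each list with the smallest adjusted p, the miR-200 host genes and the 3 nearest profiles of each called gene, and other genes were named after their values were seen. Some genes that this rule names are not reported here. Sequences came from GENCODE 29 and RefSeq and were searched with Python 3.11.15.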

Additional observations from a re-analysis of the deposited data

How the results depend on the processing

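CDH1, VIM, FN1 and EPCAM kept their direction and an adjusted p under 0.05 in all 15 alternatives, with log2 fold changes from −1.34 to −1.14 for CDH1, 0.38 to 0.47 for VIM, −0.84 to −0.76 for FN1 and −0.46 to −0.34 for EPCAM. ZEB2 kept both in all 13 alternatives that tested it, but on the log2(RPKM + 1) scale without a filter its value was 0.55, since that scale compresses low levels, and at a mean RPKM of at least 0.5 it was not tested. The number of the 10 genes called was therefore 1 in the 3 limma alternatives, where all genes called came to 348 for log2(RPKM + 1), 909 for log2(RPKM + 0.1) and 345 without a filter, against 1758, and the called genes of the pathway lists came to 6, 8 and 6 against 14. The adjusted p of CDH2 rose above 0.05 in the same 3 limma alternatives, at log2 values of 0.21, 0.23 and 0.21. The log2 fold change of CDH2 ranged from 0.17 to 0.31 with single libraries left out. ZEB1 ranged from −0.24 to −0.14 with single libraries left out. With the replicate block ZEB1 passed at −0.18 (adjusted p = 0.042), the number of genes called was 1741 and none of the other 9 genes crossed an adjusted p of 0.05, although the numbers did not pair the libraries. SNAI1 ranged from −0.22 to 0.81 with single libraries left out, and neither SNAI1, SNAI2 nor TWIST1 passed in any alternative. The cause of these changes was not tested except where stated. No scaling moved the median log2 fold change of all genes by more than 0.1. Depth limits SNAI1 and SNAI2 to wide intervals, with at most 30 counts in a library.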
